A study of Mus musculus with 2 samples.

Results

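The nuclear genes of the mitochondrial respiratory chain were followed, complex by complex, in G1E-ER4 cells after 24 h of erythroid differentiation. They were chosen by name among nuclear genes with a protein-coding transcript in GENCODE M21: symbols that begin with Nduf, Uqcr, Atp5 or Cox and a digit, and Sdha, Sdhb, Sdhc, Sdhd, Cyc1 and Cycs, without names that end in -ps. The rule found 105 of 21888 such genes, among them a second entry named Atp5o. By role these were 36 subunits of complex I, 4 of complex II, 9 of complex III, 18 of complex IV and 17 of complex V, together with cytochrome c, 17 assembly factors and 3 related genes.

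G1E-ER4 is an immortalized mouse erythroid line that descends from cells without Gata1 and carries GATA1 as a fusion to an estrogen receptor domain. The only group was cells given 10 nM 17beta-estradiol, which switches the fusion on, and it held 2 libraries of polyadenylated RNA, labelled biological replicates 1 and 2. Untreated and parental cells are not analysed here, so the values are levels in treated cells of a single line and no comparison of conditions was tested. The labels give both libraries the same biosample record and do not say that separate cultures were used, so differences between them may be technical.

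The total of expected counts was 71485617 for replicate 1 and 14121747 for replicate 2, a difference in depth of 5.06 times. All 8 erythroid markers were detected, at 30.3 to 97719 TPM in replicate 1 and 2.40 to 34786 TPM in replicate 2, where TPM is a level corrected for transcript length and scaled to a fixed total per library, and detected means 1 TPM or more in both replicates. None of 9 markers of other blood and stromal lineages, 4 of muscle or 3 of the germ line was detected, with highest values of 0.04 and 0.17 TPM for other lineages and 0.26 and 0.05 TPM for muscle, and 0 counts for all germ line markers in both replicates. These are bulk values, in which fewer cells expressing a gene and less RNA per cell cannot be told apart.

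Complex I takes electrons from NADH and complex II takes them from succinate, both pass them through ubiquinone to complex III, cytochrome c carries them to complex IV, and complex IV reduces oxygen. Complexes I, III and IV pump protons across the inner mitochondrial membrane, and complex V, the ATP synthase, lets them flow back to make ATP. Most subunits are encoded in the nucleus and a few in mitochondrial DNA, and erythroid precursors, which make heme partly in mitochondria, lose these organelles as they become red cells.

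Most respiratory chain genes were expressed, and many of them strongly. Of the 105 genes, 92 were detected, or 87.6%, against 33.2% of all nuclear protein-coding genes. Levels of 100 TPM and above in both replicates were reached by 23, or 21.9%, against 3.6% of all. Detected members had medians of 73.5 and 24.4 TPM in replicates 1 and 2, and all 7274 detected protein-coding genes had medians of 20.2 and 15.2 TPM. Together the 105 genes held 2.26% and 2.33% of the TPM of nuclear protein-coding genes, a mean of 2.30% ± 0.0490 (SD, n = 2). The summed share was therefore nearly equal in both replicates, while the typical member was lower in replicate 2.

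Among the complexes, complex III had the highest median over the subunits detected in both replicates. The median over detected subunits was 153 and 141 TPM in replicates 1 and 2 for complex III (8 of 9 detected), a mean of 147 ± 8.61 TPM (SD, n = 2). It was 125 and 27.1 TPM for complex I (34 of 36 detected), a mean of 76.0 ± 69.1 TPM (SD, n = 2). Complex IV had medians of 92.6 and 22.8 TPM (13 of 18 detected), complex V 53.0 and 27.3 TPM (15 of 17 detected) and complex II 59.1 and 14.5 TPM (4 of 4 detected). In order of the mean of both replicates, complex III was followed by I, IV, V and II. The values of complex III did not overlap those of complex I, while the values of all other neighbours in that order overlapped between replicates. The first place depended on the filter: over the subunits detected in replicate 1 whatever their value in replicate 2, which adds Uqcrb to complex III, complex I had 120 TPM and complex III 104 TPM. The order of the others depended on the table, since complex IV stood above complex I on protein-coding transcripts, at 87.0 and 47.2 TPM, and in the deposited table quantified from reads, at 85.8 and 84.3 TPM, after 97.4 TPM for complex III. Assembly factors, which build the complexes without being part of them, lay lower, at medians of 13.1 and 8.41 TPM (14 of 17 detected).

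**Figure D1:**
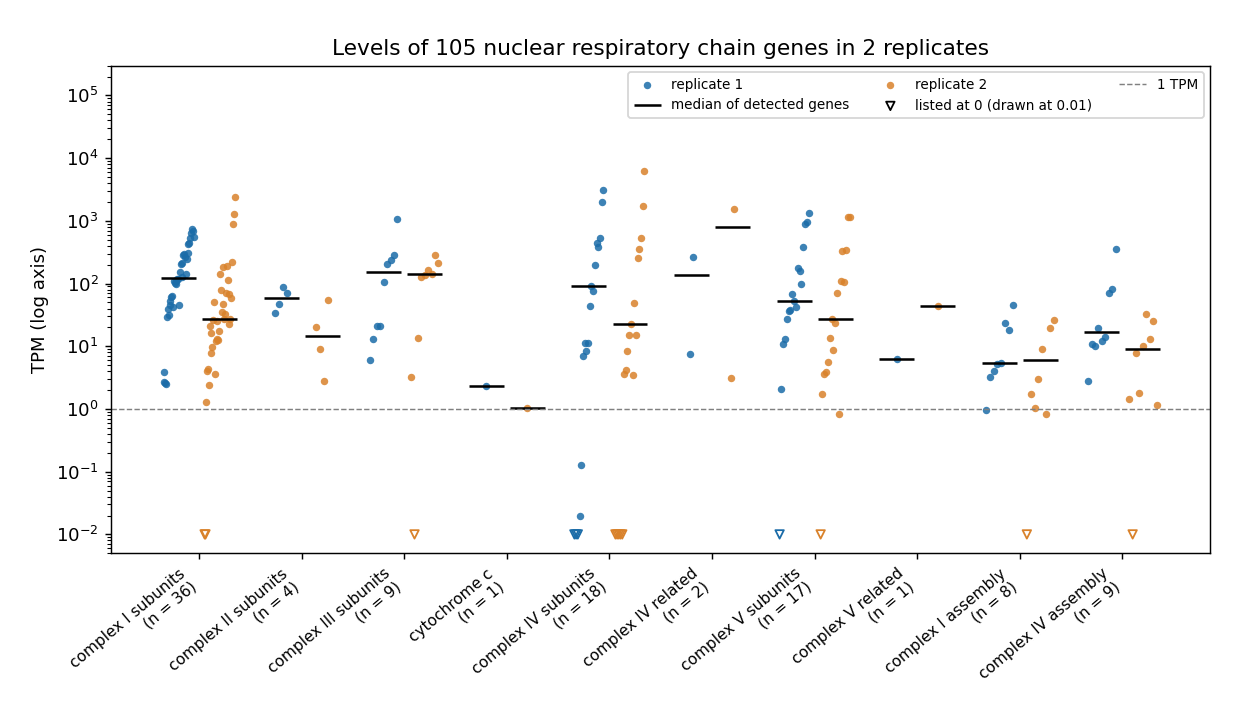
TPM of each of the 105 genes (log axis) by role, replicate 1 in blue and replicate 2 in orange; short black lines are medians over detected genes, the dashed line is 1 TPM and open triangles are genes listed at 0. Complex III subunits have similar medians in both replicates, 153 and 141 TPM, while complex I has 125 TPM in the first and 27.1 TPM in the second.

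In complex I, all 7 core subunits, which carry the electron path from NADH to ubiquinone, were detected. Ndufs7, an iron-sulfur subunit near the ubiquinone site, was highest by mean TPM at 144 and 192 TPM. Ndufv1, which holds the flavin that accepts electrons from NADH, was at 262 and 70.4 TPM, and its value in replicate 1 was 3.72 times that in replicate 2. Ndufs3, which lies in the arm outside the membrane, was at 99.2 and 25 TPM. At the low end of the core subunits was the iron-sulfur subunit Ndufs8, at 62.0 and 9.87 TPM. Of the 4 core subunits named, Ndufs7 alone was not over 2-fold lower in replicate 2.

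Of the 29 accessory subunits of complex I, 27 were detected, at 2.48 to 753 TPM in replicate 1 and 1.28 to 2376 TPM in replicate 2. Ndufa7 was highest by mean TPM, at 562 and 2376 TPM, 4.23 times higher in replicate 2. In replicate 1 Ndufb10, Ndufab1 and Ndufa6, at 648 TPM there, stood above it. Ndufab1, the mitochondrial acyl carrier protein, was at 697 and 1273 TPM, and Ndufb10 was at 753 and 907 TPM. Ndufa7 made up 7.61% of the summed TPM of complex I subunits in replicate 1 and 39.0% in replicate 2. At the low end, Ndufa9, an accessory subunit that binds a nucleotide cofactor, was at 2.48 and 4.10 TPM, with a mean of 3.29 ± 1.15 TPM (SD, n = 2), and Ndufb3 was at 2.62 and 1.28 TPM. Ndufa5 and Ndufs4 were at 3.89 and 2.66 TPM in replicate 1, on 180 and 106 counts, and had 0 counts in replicate 2. The table quantified from reads, which the authors deposited beside the alignment-based one and which was rescaled here over nuclear protein-coding genes, gave Ndufs4 5.57 and 6.44 TPM and Ndufa5 8.00 and 1.16 TPM. The values of 0 in replicate 2 stood in the M21 and M4 gene tables, and not in the table quantified from reads.

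The 4 subunits of complex II, the succinate dehydrogenase that also serves the citric acid cycle, were all detected. Sdhb, the iron-sulfur subunit, was at 71.8 and 54.7 TPM, with a mean of 63.2 ± 12.1 TPM (SD, n = 2). Sdha, the flavoprotein that oxidizes succinate, was at 46.4 and 8.95 TPM. The membrane anchor Sdhd was at 34.1 and 20 TPM. The other anchor, Sdhc, had 88.6 TPM on 4317 counts in replicate 1 against 2.84 TPM on 26 counts in replicate 2, a ratio of 31.2. Sdhc was thus the highest of the 4 in replicate 1 and the lowest in replicate 2, and the table quantified from reads gave it 78.9 and 8.61 TPM.

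In complex III, the cytochrome bc1 complex, 8 of 9 subunits were detected, and Uqcrc1, Cyc1 and Uqcrfs1 were close between replicates. Uqcrc1, a core protein, was at 281 and 288 TPM, with a mean of 284 ± 5.40 TPM (SD, n = 2). Cyc1, the cytochrome c1 subunit, was at 203 and 164 TPM. Uqcrfs1, the Rieske iron-sulfur protein, was at 104 and 139 TPM. Each of these was under 1.5-fold apart between replicates. Among small subunits, Uqcrq was at 233 and 144 TPM and Uqcrh, the hinge protein, at 21.3 and 13.7 TPM. Uqcr11 was higher in replicate 1, at 1068 and 213 TPM, and Uqcr10 was 6.24 times higher in replicate 2, at 20.8 and 130 TPM. Uqcrc2, the partner of Uqcrc1 in the core, was at only 5.97 and 3.26 TPM, with a mean of 4.62 ± 1.92 TPM (SD, n = 2), far under Uqcrc1. The table quantified from reads placed Uqcrc2 at 10.6 and 20.2 TPM, still under Uqcrc1 at 304 and 471 TPM. Uqcrb had 360 counts and 13.0 TPM in replicate 1 and 0 counts in replicate 2. Against a floor of 3 counts in replicate 2, its CPM in the M21 table, a count scaled to library size without correction for length, was at least 23.7-fold higher in replicate 1. That bound did not hold in the table quantified from reads, where Uqcrb was at 20.9 and 3.77 TPM, a ratio of 5.54.

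Cycs, the somatic cytochrome c that carries electrons from complex III to complex IV, was close to the detection limit. Its values were 2.29 TPM on 493 counts and 1.02 TPM on 6 counts. All 6 counts of replicate 2 were assigned to a retained-intron transcript, and the protein-coding transcript had 0. Quantified from reads, Cycs was at 2.59 and 0.205 TPM and so under 1 TPM in replicate 2. The testis gene Cyct had 0 counts in both replicates, and Hccs, which attaches heme to cytochrome c, was at 4.22 and 1.58 TPM. Cytochrome c was therefore at 1.66 ± 0.898 TPM (SD, n = 2), while the medians of complexes III and IV on either side of it were 147 and 57.7 TPM.

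In complex IV, cytochrome c oxidase, 13 of 18 subunits were detected and the 5 others are tissue-specific paralogs. Cox6a1 was the highest member of all, at 3108 and 6300 TPM, with a mean of 4704 ± 2257 TPM (SD, n = 2), and made up 45.2% and 67.7% of the summed TPM of complex IV subunits. Cox5b, a zinc-binding subunit, was at 1966 and 1751 TPM. Cox5a was at 532 and 527 TPM, with a mean of 529 ± 3.20 TPM (SD, n = 2), and its replicates were 1.01-fold apart. Cox8a was at 385 and 355 TPM. Below these lay Cox7c at 92.6 and 3.51 TPM, Cox7b at 8.49 and 8.31 TPM and Cox6c at 11.3 and 4.18 TPM. Cox7c differed 26.4 times between replicates on 2511 and 16 counts, and Cox7b by 1.02 times on 447 and 56 counts. This contrast was one of the M21 table: the table quantified from reads gave Cox7c 84.5 and 26.4 TPM, a ratio of 3.20, and Cox7b 25.4 and 108 TPM, 4.25 times higher in replicate 2.

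Complex V showed the same wide range within one enzyme. In the F1 head, Atp5b, the catalytic beta subunit, was at 1354 and 1145 TPM, with a mean of 1249 ± 148 TPM (SD, n = 2), and Atp5d, the delta subunit, at 976 and 1171 TPM. Atp5a1, the alpha subunit that alternates with beta in the head, was at 384 and 106 TPM. The gamma subunit gene Atp5c1 was at 10.9 and 3.56 TPM and the epsilon subunit gene Atp5e at 2.09 and 1.72 TPM. For Atp5e the deposited tables disagreed, with 103 and 48.7 TPM in the table quantified from reads. In the stalk and membrane part, Atp5g3, a gene for the c subunit of the rotating ring, was at 888 and 342 TPM. Atp5f1, the b subunit of the outer stalk, was at 96.9 and 325 TPM, and Atp5mpl, a small membrane subunit, at 12.9 and 3.85 TPM. The second entry named Atp5o, which shares exons with the neighbouring Donson gene, had 0 counts in both replicates, while Atp5o itself, the stalk protein that confers oligomycin sensitivity, was at 36.5 and 13.8 TPM. Atp5s, a coupling factor related to the complex, was at 6.22 and 44.2 TPM, 7.11 times higher in replicate 2. In the M4 gene table Atp5s was under the detection limit, at 0.37 and 0.53 TPM on 34 and 8 counts, while the table quantified from reads gave 8.45 and 37.6 TPM.

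Atp5h, the d subunit of the outer stalk, differed most among the subunits with counts in both replicates. Its values were 179 TPM on 3628 counts and 0.84 TPM on 3 counts. In CPM the ratio was 239, with a 95% Clopper-Pearson interval of 81.7 to 1159 that covers counting error only. Most of its level in replicate 1, 168 TPM, was assigned to Atp5h-207, a transcript of 420 bases that is not protein-coding. The table quantified from reads gave 225 and 16.6 TPM, a smaller difference in the same direction.

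Among assembly factors of complex IV, Cox17, the chaperone that delivers copper, had 353 TPM on 7813 counts in replicate 1 against 1.14 TPM on 39.1 counts in replicate 2. A readthrough gene, Gm21987, shares 257 exonic bases with Cox17 and contains its whole coding sequence of 189 bases, and stood at 832 and 158 TPM. The table quantified from reads gave Cox17 1073 and 292 TPM. How much of this signal belongs to Cox17 cannot be told apart from Gm21987 in gene-level values. Cox14 was at 81.6 and 25.7 TPM and Cox19 at 71.8 and 13.1 TPM, against 17.6 and 13.0 TPM in the M4 gene table. Cox15, which acts in heme A synthesis, was at 2.83 and 1.46 TPM. Cox20 had 10.7 TPM on 253 counts in replicate 1 and 0 counts in replicate 2, so its CPM in the M21 table was at least 16.7-fold higher in replicate 1. Quantified from reads, Cox20 was at 21.1 and 7.68 TPM, a ratio of 2.74. Of the 883 exonic bases of Cox20, 804 lie opposite exons of Hnrnpu, a gene at 371 and 302 TPM. In all, exons of 39 members overlap those of another gene, 33 of them on the opposite strand. The share over all genes was not computed. The labels and headers do not say whether reads were counted by strand, so the share of Cox20 counts that stem from Hnrnpu was not tested.

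Complex I assembly factors with an Nduf name were detected in 6 of 8 cases. Ndufaf8 was at 44.7 and 26.2 TPM and Ndufaf3 at 18.0 and 19.7 TPM. Ndufaf2 fell short of detection, at 23.7 and 0.83 TPM, against 20.1 and 2.01 TPM in the table quantified from reads. Ndufaf5 was at 3.24 and 1.73 TPM. Ndufaf7, a methyltransferase that acts on a core subunit, had 0.98 TPM in replicate 1 and 0 counts in replicate 2, and its CPM was at least 4.61-fold higher in replicate 1. When quantified from reads, Ndufaf7 was at 1.64 and 0.395 TPM, a ratio of 4.16. Of the 13 genes not detected, 6 were under 1 TPM in replicate 2 alone, and 6 reached 1 TPM in both replicates of the table quantified from reads.

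Several subunits exist as paralogs that other tissues use in place of one another, and in 3 of 8 families the more abundant paralog was one known from another tissue or condition. In the Cox6b family, which forms the face of complex IV that meets cytochrome c, Cox6b2, known from testis, was at 442 and 253 TPM and Cox6b1, the somatic form, at 75.2 and 48.9 TPM. Cox6b2 thus made up 85.5% and 83.8% of the family, or 84.6% ± 1.17 (SD, n = 2), while the germ line markers Ddx4, Prm1 and Ldhc were at 0. In the Ndufa4 family, Ndufa4l2, known as a gene induced by hypoxia, was at 264 and 1573 TPM, and Ndufa4, a subunit first assigned to complex I and now to complex IV, at 6.88 and 3.59 TPM. Ndufa4l2 made up 97.5% and 99.8% of the pair, or 98.6% ± 1.63 (SD, n = 2). Both shares had the same majority in each replicate. Cox7a1, known from heart and skeletal muscle, was at 44.3 and 22.8 TPM against Cox7a2 at 11.3 and 15.2 TPM and the related Cox7a2l at 7.62 and 3.12 TPM. Cox7a1 held 70.0% and 55.5% of that family, but 33.8% and 37.7% in the table quantified from reads, where Cox7a2l was at 65.7 and 26.7 TPM, so the order within this family depended on the table. The muscle markers Ckm, Myh7, Actc1 and Tnnt2 were at or below 0.26 TPM in both replicates.

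The coding sequences of the first 2 of these families are shown because their reads can be told apart only where they differ. Capitals mark bases that differ from the aligned base of the other paralog or have no partner in it, in a global alignment of both coding sequences from GENCODE M21 on mm10. Ndufa4 lies on chromosome 6 from 11900292 to 11907497 on the minus strand, and Ndufa4l2 on chromosome 10 from 127514967 to 127517154 on the plus strand. Cox6b1 and Cox6b2 lie on chromosome 7, from 30616861 to 30626151 and from 4751792 to 4753094, both on the minus strand.
Ndufa4: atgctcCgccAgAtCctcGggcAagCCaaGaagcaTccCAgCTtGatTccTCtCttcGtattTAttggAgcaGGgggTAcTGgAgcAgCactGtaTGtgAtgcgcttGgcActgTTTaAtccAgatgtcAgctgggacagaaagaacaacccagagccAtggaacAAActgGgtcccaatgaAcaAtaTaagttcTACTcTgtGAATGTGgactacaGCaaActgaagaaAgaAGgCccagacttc
Ndufa4l2: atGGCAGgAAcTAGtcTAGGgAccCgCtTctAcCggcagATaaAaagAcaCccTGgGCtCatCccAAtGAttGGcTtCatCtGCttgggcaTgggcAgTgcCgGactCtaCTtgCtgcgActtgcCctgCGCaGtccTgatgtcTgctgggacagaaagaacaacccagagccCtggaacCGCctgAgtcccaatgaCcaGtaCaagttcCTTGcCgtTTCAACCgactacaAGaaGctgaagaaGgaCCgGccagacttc
Cox6b1: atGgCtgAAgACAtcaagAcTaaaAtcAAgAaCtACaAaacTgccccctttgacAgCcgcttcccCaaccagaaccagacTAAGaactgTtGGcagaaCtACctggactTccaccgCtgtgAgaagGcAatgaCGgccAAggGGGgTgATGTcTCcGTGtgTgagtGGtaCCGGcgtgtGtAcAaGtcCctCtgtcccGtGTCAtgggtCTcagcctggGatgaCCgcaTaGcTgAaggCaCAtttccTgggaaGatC
Cox6b2: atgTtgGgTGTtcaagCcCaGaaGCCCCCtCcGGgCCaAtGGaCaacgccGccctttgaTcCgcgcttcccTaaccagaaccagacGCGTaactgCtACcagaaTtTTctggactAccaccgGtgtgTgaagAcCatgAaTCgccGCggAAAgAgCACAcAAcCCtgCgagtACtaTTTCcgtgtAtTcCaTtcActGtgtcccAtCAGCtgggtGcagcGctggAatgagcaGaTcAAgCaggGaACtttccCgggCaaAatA
Ndufa4 and Ndufa4l2 were identical at 175 of 239 aligned bases, or 73.2%, with a longest identical run of 28 bases. Cox6b1 and Cox6b2 were identical at 172 of 250, or 68.8%, with a longest run of 14 bases. Capitals are spread along both pairs, and in the Ndufa4 pair the longest stretch without them lies in the middle of the sequence.

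In 4 of the other families a single paralog held nearly all of the signal. Cox4i1 was at 194 and 15.3 TPM, and its partner Cox4i2, known from lung and from hypoxia, at 0.02 and 0 TPM on 1 and 0 counts. Cox6a1 stood beside Cox6a2, the muscle form, at 0.13 and 0 TPM on 5 and 0 counts. Cox7b2, Cox8b and Cox8c, forms known from testis or muscle, had 0 counts in both replicates, against Cox7b and Cox8a. The floor of 3 counts for such a gene was 0.0420 CPM in replicate 1 and 0.212 CPM in replicate 2. The Atp5g genes make the same mature c subunit from different precursors, and Atp5g3 made up 79.5% and 74.4% of the family. Atp5g1 was at 162 and 109 TPM and Atp5g2 at 67.0 and 8.76 TPM, so the order Atp5g3, Atp5g1, Atp5g2 was the same in both replicates.

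**Figure D2:**
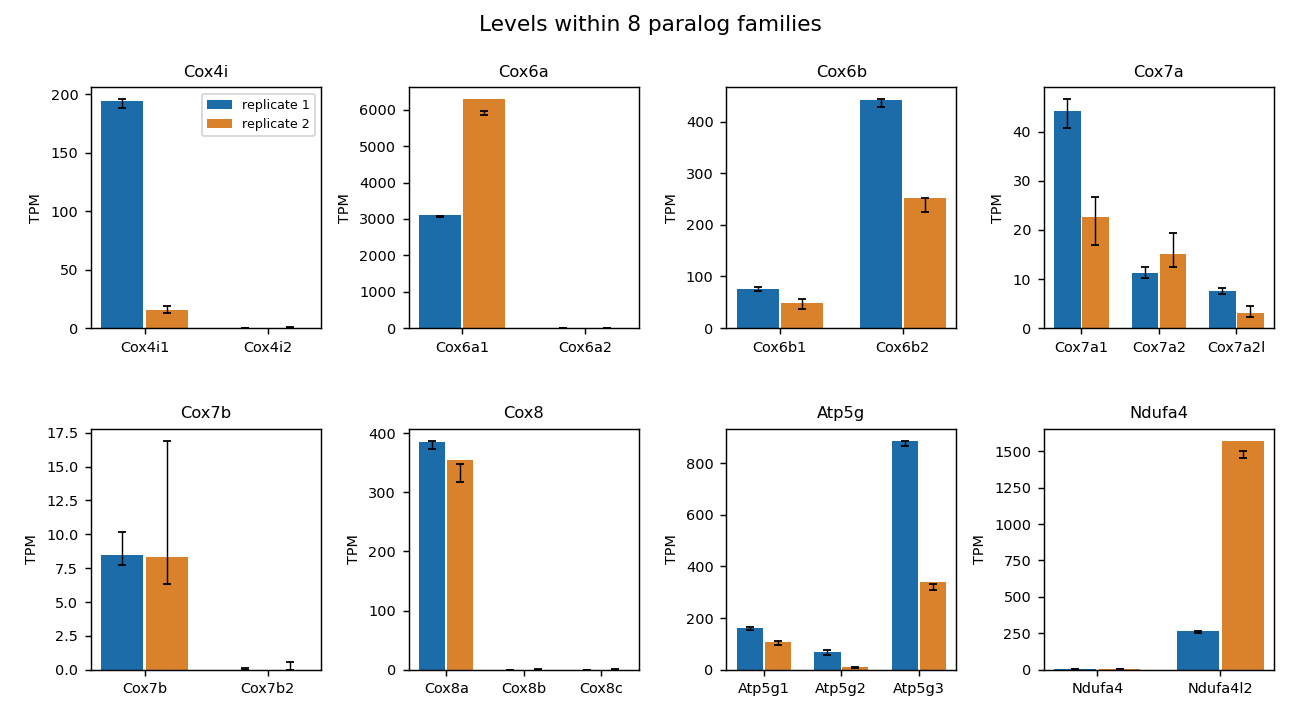
TPM of each gene in 8 paralog families, each panel with its own linear axis from 0; bars are the deposited TPM of replicate 1 (blue) and replicate 2 (orange) and black lines the authors' interval of the posterior estimate, of unstated level, which need not include the bar. Cox6b2 stands above Cox6b1 and Ndufa4l2 above Ndufa4 in both replicates, at 442 and 253 TPM and at 264 and 1573 TPM.

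A gene's TPM is the sum over its transcripts, and for some of the highest members most of it was assigned to transcripts that do not encode the protein. Over the 98 members at 1 TPM and above in replicate 1 the median share of protein-coding transcripts was 96.6%, and 18 were under 50%. In replicate 2 the median was 97.9% over 92 such members, and 21 were under 50%. Those were 18.4% and 22.8% of the members, against 26.4% and 31.6% of the 8143 and 7589 protein-coding genes at the same level. The most abundant transcript was not protein-coding in 20 and 21 members, or 20.4% and 22.8%, against 26.6% and 31.6% of those genes. For Atp5b, 1272 and 1057 TPM were assigned to Atp5b-207, a processed transcript of 343 bases, and 81.7 and 82.1 TPM to its protein-coding transcript. For Ndufab1, 7.18% and 13.9% of the level was protein-coding, the rest mainly a retained-intron transcript of 443 bases. For Ndufb10 the share was 3.50% and 0.510%, and the leading transcript changed from a retained intron in replicate 1 to a processed transcript in replicate 2. The assignment depended on the table for Ndufb10 in replicate 1. The table quantified from reads, as deposited, gave its protein-coding transcript Ndufb10-201 601 and 16.8 TPM and the retained intron 3.78 and 1.83 TPM. The processed transcript Ndufb10-206 was at 39.0 and 169 TPM there, so in replicate 2 it stood above Ndufb10-201 in both tables. For Atp5b that table also put more on Atp5b-207, at 855 and 249 TPM, than on the protein-coding Atp5b-201, at 61.7 and 10.6 TPM. Values as deposited were not rescaled, and can be compared between transcripts of 1 replicate but not between replicates. Rescaled over nuclear protein-coding genes, Atp5b as a gene was at 1289 and 1260 TPM in that table.

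Among other members led by noncoding transcripts in both replicates, Ndufa12 had 3.28% and 7.87% of its level on protein-coding transcripts, Ndufb2 13.1% and 1.64%, and Ndufs3 25.7% and 8.52%. Sdha had 8.73% and 29.7%, Atp5a1 24.9% and 4.97%, Atp5f1 19.1% and 0.865%, and Cox19 1.09% and 1.53%. The assembly factors Ndufaf4, Ndufaf5, Ndufaf6 and Ndufaf8 were led by such transcripts in both replicates too. Ndufa3, Ndufa11, Ndufs4, Cox6b2, Atp5g3 and Atp5h were so in replicate 1 alone, and Ndufaf3, Ndufb8, Ndufb9, Ndufs7, Cox6c, Cox7b and Cycs in replicate 2 alone. For Cox6b2 protein-coding transcripts still held 51.0% and 82.3%, and Cox6b2 made up 78.7% of its family on protein-coding transcripts. Shares between overlapping transcripts of one gene are estimates of the authors' quantifier. For Atp5f1 and Atp5g3 the noncoding lead was absent from the table quantified from reads, as deposited. There the protein-coding Atp5f1-201 was at 102 and 59.7 TPM and the retained intron Atp5f1-205 at 0.0963 and 0 TPM. Atp5g3-205, the noncoding leader at 547 TPM in replicate 1, had 0.0731 TPM there, against 677 TPM for the protein-coding Atp5g3-201. These values as deposited, too, cannot be compared between replicates.

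**Figure D3:**
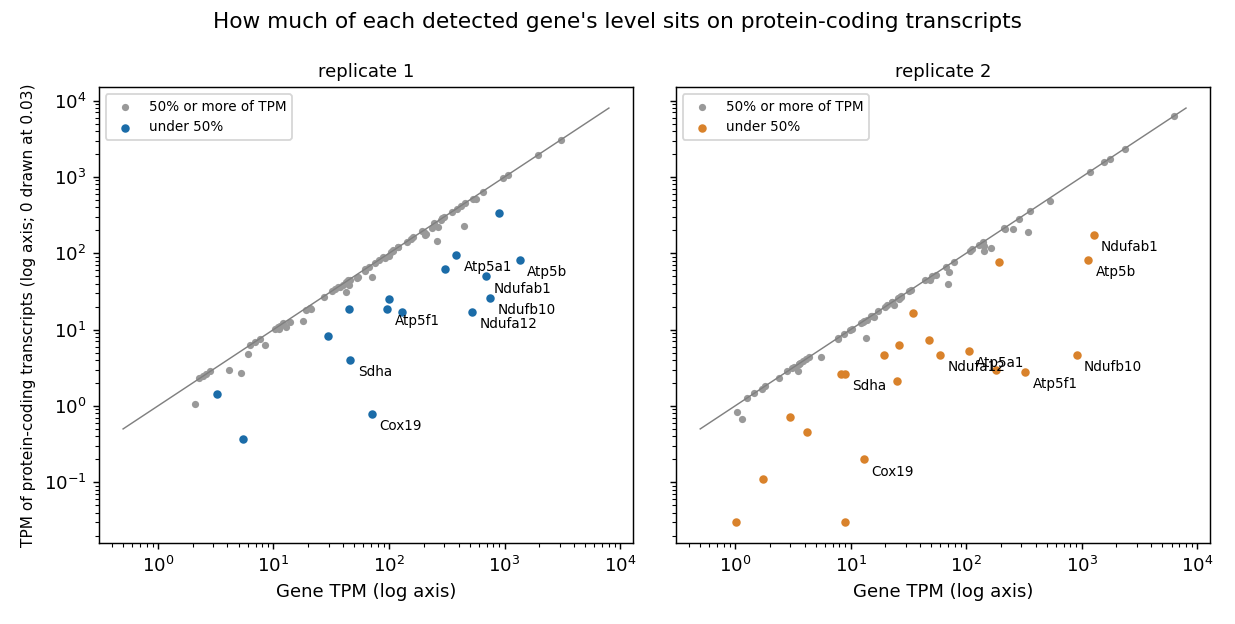
For each of the 92 detected genes, TPM of its protein-coding transcripts against its total TPM (both log axes), replicate 1 left and replicate 2 right; the line is equality and coloured points have under 50% on protein-coding transcripts. Most genes lie on the line, and Atp5b, at 1354 and 1145 TPM in total, lies at 81.7 and 82.1 TPM on the vertical axis.

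Respiratory chain genes have many processed copies in the genome. Using a match of 95% or more over at least 50% of the coding sequence, 28 members had 50 close copies among annotated transcripts of other genes, of which 26 copies had 0 TPM in both replicates. No such search was made for other genes. In 5 pairs the matching gene stood above the member in both replicates. The processed pseudogene Ndufb4c, whose sequence matches all 387 coding bases of the complex I subunit Ndufb4, was at 1188 and 5081 TPM, and Ndufb4 at 45.5 and 144 TPM. Gm20498 stood at 60.4 and 12.6 TPM beside Cox16 at 19.3 and 1.82 TPM, and Gm6969 at 16.7 and 11.7 TPM beside Cox7a2l. The other pairs were Gm21987 with Cox17 and Donson with the second Atp5o entry. Of the 5 matching genes, only Ndufb4c and Gm6969 are processed pseudogenes. Gm20498, Gm21987 and Donson are annotated as protein-coding and share exons with their members on the same strand, so they are overlapping genes and not processed copies. The split of reads between each of these 5 members and its copy or overlapping gene is uncertain. Adding all 50 matches to their members, overlapping genes included, gave 50 of 99 members over 2-fold lower in replicate 2, against 51 of 98 without them. It gave 9 higher, against 8. The second Atp5o entry, with 0 counts of its own, was compared there only through Donson, at 24.2 and 130 TPM.

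Between the replicates, most of the members' differences were towards lower values in replicate 2. The comparison took the 98 members whose expected counts averaged 50 or more over both replicates. In replicate 2, 51 of them were over 2-fold lower, or 52.0%, against 35.2% of 8514 protein-coding genes under the same minimum. Over 2-fold higher were 8, or 8.16%, against 15.1% of those genes. The median log2 ratio of replicate 2 over replicate 1 was -1.14 for the members and -0.42 for all genes. The 4 members tested with 0 counts in replicate 2 count as lower, and setting them at their bound left the median at -1.14. With the median of all genes set to 0, 43 members, or 43.9%, were lower and 12 higher. In that setting 26.4% of all genes were lower and 23.9% higher. Removing the trend over GC content also set the median of all genes to 0. There 42 members, or 42.9%, were lower and 14 higher, beside 24.9% and 23.5% of all genes. The direction of the members' median was the same in every table and scaling tried.

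Complex I subunits made up 26 of the 51 lower members. Of the 36 subunits 26 were over 2-fold lower in replicate 2 and 2 were higher, with a median log2 ratio of -2.18, and that was -1.76 after centring on all genes. Ndufa2 was at 108 and 3.66 TPM, 29.5 times lower in replicate 2, or 10.2 times when quantified from reads, Ndufv3 at 422 and 22.8 TPM and Ndufb11 at 451 and 27.1 TPM. The 2 higher subunits were Ndufa7 and Ndufb4. In complex III 2 of 9 subunits were lower and 1 was higher, with a median of -0.63, and in complex IV 3 of 13 were lower and 1 was higher, with a median of -0.62. Complex V had 9 of 16 lower and 1 higher, with a median of -1.26, and complex II had 2 of 4 lower. The table quantified from reads gave 16 complex I subunits lower and a complex I median of -0.91, with an all-gene median of -0.11. There the median of complex II was -0.96, of complex III -0.31 and of complex V -0.47, and that of complex IV turned to 0.04. Both quantifications parted mainly in replicate 2, where 14 of 92 detected members were over 3-fold higher in the table quantified from reads than in the M21 gene table on the same scale, against 2 in replicate 1. Atp5e and Cox7a2l were those 2 and were among the 14 as well. The effective length by which counts are divided was over 1.5-fold apart between replicates in 15 of the 92. The shares over all protein-coding genes were not computed for these counts of 14 and 15, so they are not read as particular to the members. These are differences between 2 libraries of one group, with no replicate of the difference itself, and the part that depth plays in them was not tested.

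**Figure D4:**
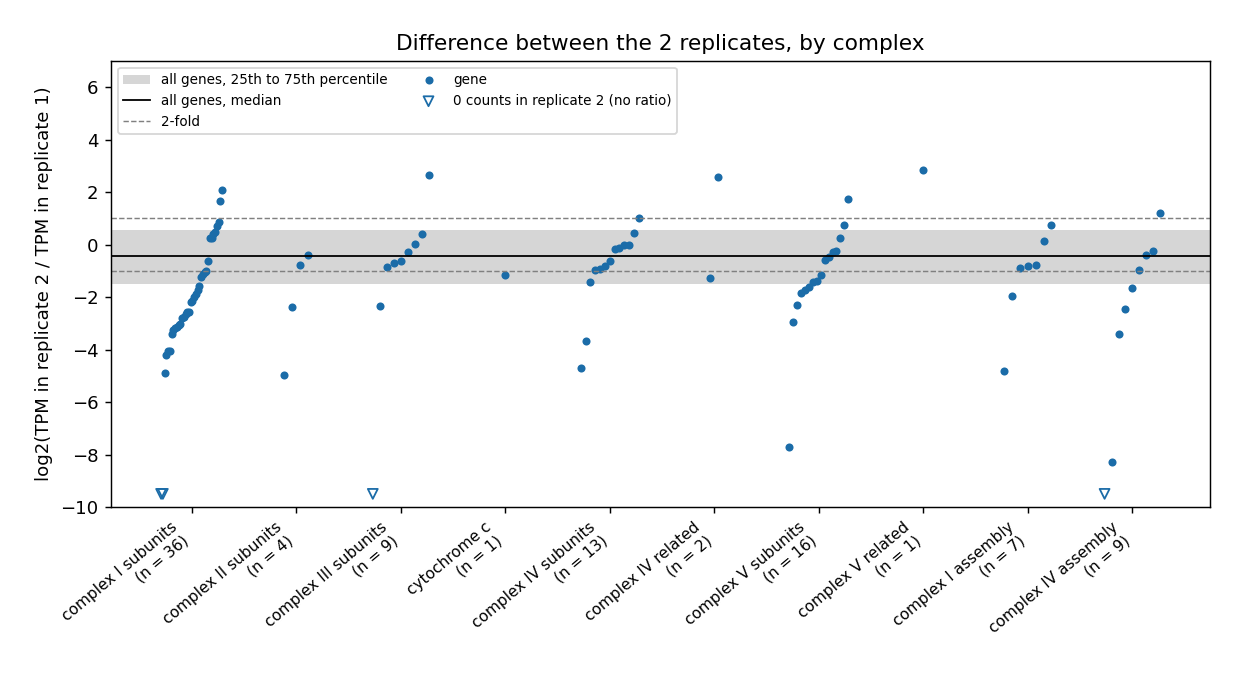
Log2 ratio of TPM in replicate 2 over replicate 1 for the 98 members whose expected counts averaged 50 or more, by role; the grey band spans the 25th to 75th percentile of 8514 protein-coding genes (-1.49 to 0.54), the black line is their median (-0.42), dashed lines mark 2-fold and open triangles are genes with 0 counts in replicate 2, drawn at an arbitrary position. Complex I subunits lie mostly below the band, and complex III and IV subunits mostly inside it.

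The 8 members over 2-fold higher in replicate 2 came from several complexes. Atp5s, Uqcr10, Ndufa4l2, Ndufa7 and Atp5f1 were furthest, with log2 ratios of 2.83, 2.64, 2.57, 2.08 and 1.74, and Ndufb4, Cox18 and Cox6a1 followed at 1.66, 1.21 and 1.02. Cox18, which inserts a mitochondrially encoded complex IV subunit into the membrane, was at 14.0 and 32.4 TPM. Uqcr10 had 426 counts in replicate 1 and 486 in replicate 2, although replicate 2 was the shallower. The table quantified from reads gave Uqcr10 25.7 and 94.2 TPM, again higher in replicate 2. In that table Cox6a1 and Atp5f1 were under 2-fold higher in replicate 2, at 1.43 and 1.90 times, and in the M4 gene table Atp5s was so, at 1.43 times. In the M21 table the higher value of Atp5f1 was not one of its protein-coding transcripts, which were lower in replicate 2, at 18.5 and 2.81 TPM. That split depended on the table. Quantified from reads, Atp5f1 was at 163 and 310 TPM, while its retained intron Atp5f1-205 was at 0.0963 and 0 TPM as deposited.

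Members with more G and C in their protein-coding transcripts had higher levels, as a description across genes, which are not independent replicates. Spearman's rho set a gene's TPM over all its transcripts against the mean GC content of its protein-coding transcripts. It was 0.48 in replicate 1 and 0.49 in replicate 2 over 98 members, and 0.28 and 0.36 over 8458 protein-coding genes of the same libraries. Detected members in the lowest of 3 GC classes (40.8% to 49.5%) had medians of 27.7 and 8.04 TPM, and those in the highest class (54.6% to 61.8%) 198 and 44.8 TPM. Cycs, at 40.8%, had the lowest GC content of the detected members and the lowest mean TPM, and Cyc1, at 61.8%, had the highest GC content. The genes taken here were those at 1 TPM or more in either replicate, without the minimum of counts used for fold differences. Their log2 ratio between replicates, with 1 added to each TPM, was not ordered by GC among the members (rho 0.06). Over all these genes rho was 0.20. Between replicates the rank correlation of TPM was 0.75 over the members and 0.83 over all genes.

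Promoter windows, from 250 bases before to 50 after each annotated start, were matched for 85 of the 105 genes in a table from RefSeq on GRCm38.p6, giving 90 windows. Short motifs of factors known to regulate respiratory chain genes were searched on both strands: GCATGCGC for NRF1, CCGGAAG for the ETS family, which includes GABP, and AAGATGGC for YY1. The NRF1 letters were in 14.4% of the members' windows, against 6.26% of 7570 windows of detected protein-coding genes and 2.71% of all 32851 windows. The ETS letters were in 26.7%, 21.6% and 8.86%, and the YY1 letters in 14.4%, 5.50% and 2.75%. In no member's window did the ETS and YY1 letters overlap. Detected members with any of the 3 motifs had medians of 53.0 and 25 TPM (37 genes), and those with none 109 and 27.1 TPM (39 genes). A match describes these letters in the window and is not a bound site.

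The windows of Cox6a1 and Uqcr11 are shown as those of the highest members with motifs of 2 of the 3 kinds, read along the gene's strand with the matches in capitals. They lie at chr5:115348909-115349208 and chr10:80406772-80407071 of GRCm38.p6, both on the minus strand.
Cox6a1: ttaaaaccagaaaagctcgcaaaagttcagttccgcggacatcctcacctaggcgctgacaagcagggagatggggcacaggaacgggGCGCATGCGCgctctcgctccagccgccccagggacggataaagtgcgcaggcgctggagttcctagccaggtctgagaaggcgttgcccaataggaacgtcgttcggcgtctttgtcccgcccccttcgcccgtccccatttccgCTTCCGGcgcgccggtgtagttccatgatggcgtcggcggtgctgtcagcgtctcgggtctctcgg
Uqcr11: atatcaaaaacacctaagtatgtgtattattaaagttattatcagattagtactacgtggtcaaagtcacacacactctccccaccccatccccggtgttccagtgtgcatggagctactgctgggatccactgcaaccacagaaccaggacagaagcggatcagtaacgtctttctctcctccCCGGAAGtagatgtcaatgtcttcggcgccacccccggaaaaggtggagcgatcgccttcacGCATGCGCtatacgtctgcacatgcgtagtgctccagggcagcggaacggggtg
In the Cox6a1 window the first run of capitals holds the NRF1 letters on both strands, overlapping, and the second the ETS letters. In the Uqcr11 window the ETS letters come first and the NRF1 letters second. The members share these letters at very different levels, since Cycs, at 2.29 and 1.02 TPM, also had the NRF1 letters.

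The regulators themselves were expressed at low to moderate levels, and 10 of 12 were detected. Yy1 was highest, at 32.4 and 71.4 TPM, Nrf1 was at 10.8 and 6.95 TPM, and Gabpa, the DNA-binding subunit of GABP, at 3.09 and 1.32 TPM. Ppargc1a, a coactivator that drives mitochondrial biogenesis in muscle and brown fat, had 0 counts in both replicates, while its relative Ppargc1b was at 2.62 and 4.11 TPM and Pprc1 at 5.27 and 6.45 TPM. Tfb1m, at 0.62 and 0 TPM, was the other one not detected.

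Of the 13 subunits encoded in mitochondrial DNA, 9 were detected, with medians over all 13 of 240 and 24.7 TPM. mt-Atp8 was highest at 634 and 1318 TPM, and mt-Co3 lowest by mean TPM, at 0.25 and 0.08 TPM. The authors' posterior interval for mt-Co3, of unstated level, was 31.5 to 176 TPM in replicate 1 and did not include its TPM. In replicate 2 it reached up to 36.5 TPM. The last place of mt-Co3 is therefore uncertain. mt-Nd3, mt-Nd4l and mt-Atp6, at 30.3, 108 and 240 TPM in replicate 1, had 0 counts in replicate 2. The upper bounds of their intervals in replicate 2 were 1.04, 96.8 and 66.7 TPM. Mitochondrial genes lie end to end in shared transcripts. The assignment of counts among them is uncertain, and the cause was not tested. General mitochondrial genes were all detected (5 of 5), from Tomm20, an import receptor, at 539 and 359 TPM down to the citrate synthase gene Cs at 33.6 and 9.72 TPM.

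Assembly factors without a name in the rule were mostly detected as well, in 9 of 10 cases for complex I, 2 of 4 for complex II, 3 of 6 for complex III, 11 of 13 for complex IV and 4 of 4 for complex V. Dmac1 led those of complex I at 129 and 49.8 TPM, while Tmem126a was at 52.9 and 0.52 TPM. Uqcc2 led those of complex III at 145 and 30.2 TPM, with Lyrm7 lowest at 0.24 and 0 TPM. For complex II, Sdhaf1 was at 10.2 and 11.7 TPM and Sdhaf3 at 0.10 and 0.15 TPM. For complex IV, Cmc2 was at 74.7 and 7.06 TPM and Sco1 at 1.25 and 1.17 TPM. Atpaf2 was at 49.9 and 19.0 TPM and Tmem242 at 17.3 and 4.08 TPM for complex V. Of 8 other enzymes that feed electrons into the chain, 5 were detected, with Etfb, a subunit of the electron transfer flavoprotein, at 103 and 30 TPM and Chdh at 0 counts in both replicates.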

How the data were processed

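RNA-seq of polyadenylated RNA from 2 libraries of 1 group was analysed. Reads were placed on mm10 and quantified with GENCODE M21 and M4, per the deposited README with aligner and quantifiers not given in the sources used here, while the column names are those RSEM and kallisto write. In the deposited tables an expected count is an estimated number of fragments, without normalization. TPM values, by the authors, are scaled to a fixed total over each table. The deposited percent column, a transcript's part of its gene, was recomputed here from TPM. Other deposited columns give effective length and the bounds of a posterior interval.

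The M21 gene table was used throughout. Members and lists were chosen with earlier results of these data known. Named genes are all members of complexes II and III, cytochrome c and the paralog families, the 3 highest and 2 lowest of other roles, those under 1 TPM, those furthest apart between replicates, those led by noncoding transcripts, and the extremes of each further list; Ndufv3, Ndufb11, Ndufa2, Ndufa6, Cox7c, Cox6c, Ndufa9, Ndufb3, Ndufb4, Cox18 and a few regulators were added after their values were seen. One gene under this rule is not reported here. Fold differences used genes whose expected counts averaged 50 or more. The fold counting was tested on simulated data. Close copies came from blastn 2.17.0. With 2 libraries no test between conditions was possible. Alternatives were the M4 table, the table quantified from reads, posterior means, other thresholds, a pseudocount of 1 or 0.1, CPM, edgeR 4.0.16 TMM and DESeq2 1.42.0 size factors on rounded counts, protein-coding transcripts only, centring, GC content and added copies; the last 4 were chosen after seeing the data. Work was done in R 4.3.3 and Python 3.11.15 with scipy 1.17.1, pandas 2.3.3, numpy 2.4.6 and matplotlib 3.10.9.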

Additional observations from a re-analysis of the deposited data

How the results depend on the processing

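The members' median log2 ratio kept its direction under every alternative run, and so did the medians of complexes I, II, III and V. That of complex IV turned from -0.62 to 0.0400 when quantified from reads. The 2 replicates form 1 group, so no paired analysis was possible because there is no second group. Replicate 2 was the shallower, with 11 members at 0 counts there against 4 in replicate 1, and the part of depth in this was not tested. The 4 of these with enough counts to be compared were at 0 in the M4 table too, and all 4 had over 3 counts in replicate 2 when quantified from reads. Quantified from reads, the median TPM of detected subunits was 97.4 for complex III and 70.0 for complex V, against 147 and 40.2 in the M21 table. On protein-coding transcripts it was 134 for complex III. Leaving out each replicate in turn gave 27.1 to 120 TPM for complex I, 14.5 to 59.1 TPM for complex II, 104 to 141 TPM for complex III, 22.8 to 92.6 TPM for complex IV and 27.3 to 60.0 TPM for complex V, and without replicate 2 complex I stood above complex III. The members' share of TPM, 2.30%, was 2.47% with M4, 2.12% from reads and 2.58% on protein-coding transcripts. The members' median log2 ratio, -1.14, was -0.65 from reads, -1.45 in CPM, -1.02 with DESeq2 size factors, -0.80 on log2(TPM + 1) without a count minimum, -1.45 on protein-coding transcripts, -0.72 centred, -0.61 with the GC trend removed and -1.03 with close copies added. Removing the GC trend also set the median of all genes to 0. It gave 14 members over 2-fold higher in replicate 2, against 12 with centring alone and 8 in the main setting. Of all genes 23.5% were higher, against 23.9% with centring alone and 15.1% in the main setting. From reads 16 complex I subunits, not 26, were over 2-fold lower. The share of Cox6b2 was 80.9% from reads and 78.7% on protein-coding transcripts, against 84.6%, and that of Cox7a1 was 35.8% from reads, against 62.7%, so that it no longer held the majority. The cause was not tested for these.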
